A study of Mus musculus with 16 samples.

Results

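The genes described here carry glucose into the muscle fibre, split it to pyruvate and lactate, and build and break glycogen. They were 39 genes, chosen by their role and matched by symbol, of 23222 symbols in the deposited tables. RNA was measured by bulk RNA-seq in myofibers, the multinucleated cells of skeletal muscle, from the extensor digitorum longus (EDL), a fast muscle of the hindlimb. All mice were C57BL/6 males, and the fibres of every group had been freed of adhering mononucleated cells. The 4 groups, with 4 libraries each, were old runners (22 months of age, 5 weeks of voluntary wheel running), old controls (22 months, no running treatment), young runners (4 months, the same 5 weeks of running) and young controls (4 months). The labels name no genetic change in any group. The labels do not say whether each library came from a separate mouse, so every p-value measures the spread between libraries. In bulk RNA, fewer cells of a type and less RNA per cell cannot be told apart.

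Depth ranged from 30.7 M to 67.4 M reads per library (median 46.9 M), and 12694 to 17565 genes were detected per library. Mitochondrial transcripts took 0.639% to 2.07% of reads, and pairwise correlations of libraries across genes lay between 0.90 and 0.963. The fibre transcript Acta1 averaged 2195984 ± 706629 normalised reads in old runners and 1826615 ± 327742 in old controls, and 1982171 ± 550762 in young runners and 1782459 ± 104812 in young controls (SD, n = 4 each). Ptprc, the general leukocyte marker, was at 0 in 14 of 16 libraries, but other leukocyte markers had reads. Summed over 11 such markers, normalised reads ran from 694 to 1607 in old runners and 421 to 1244.5 in old controls. The sums were 1246.5 to 2913 in young runners and 806 to 2714 in young controls. Normalised reads are whole reads recovered from the deposited values and divided by 1 size factor per library.

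In muscle, glucose enters through facilitative carriers, is trapped by hexokinase and passes the controlled step of phosphofructokinase before it is split and oxidised to pyruvate. Fast fibres draw much of their energy for short bursts from glycogen, which phosphorylase splits when phosphorylase kinase is switched on by calcium and hormones. Lactate dehydrogenase is a tetramer of an A and a B subunit, and the B subunit is known from heart and oxidative fibres.

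The glycolytic genes were among the most abundant transcripts of these fibres. Levels of different genes are compared per length, as RPKM, reads per kilobase of exon scaled to the depth of the library. Together the 39 genes took 7.0% to 9.79% of all reads in old runners and 6.99% to 9.01% in old controls, and 7.27% to 9.45% in young runners and 7.18% to 7.48% in young controls. Averaged over 16 libraries, 10 genes stood above 500 RPKM. Aldoa, the muscle aldolase, led with 7030 RPKM, followed by the muscle enolase Eno3 with 6860 RPKM and the muscle phosphoglycerate mutase Pgam2 with 3740 RPKM. Next came Pygm, the muscle glycogen phosphorylase, with 2220 RPKM, Pfkm, the muscle phosphofructokinase, with 2060 RPKM, and Ldha, the A subunit of lactate dehydrogenase, with 1840 RPKM. Gapdh (1100 RPKM), Pkm (1080 RPKM), Tpi1 (978 RPKM) and Ugp2 (586 RPKM) completed these 10. At the low end, Hk1 averaged 0.584 RPKM and Pfkp, the platelet form of phosphofructokinase, 0.173 RPKM. Pygb, the brain form of phosphorylase, averaged 0.0379 RPKM, was at 0 reads in 11 of 16 libraries and was too low for any test.

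**Figure D1:**
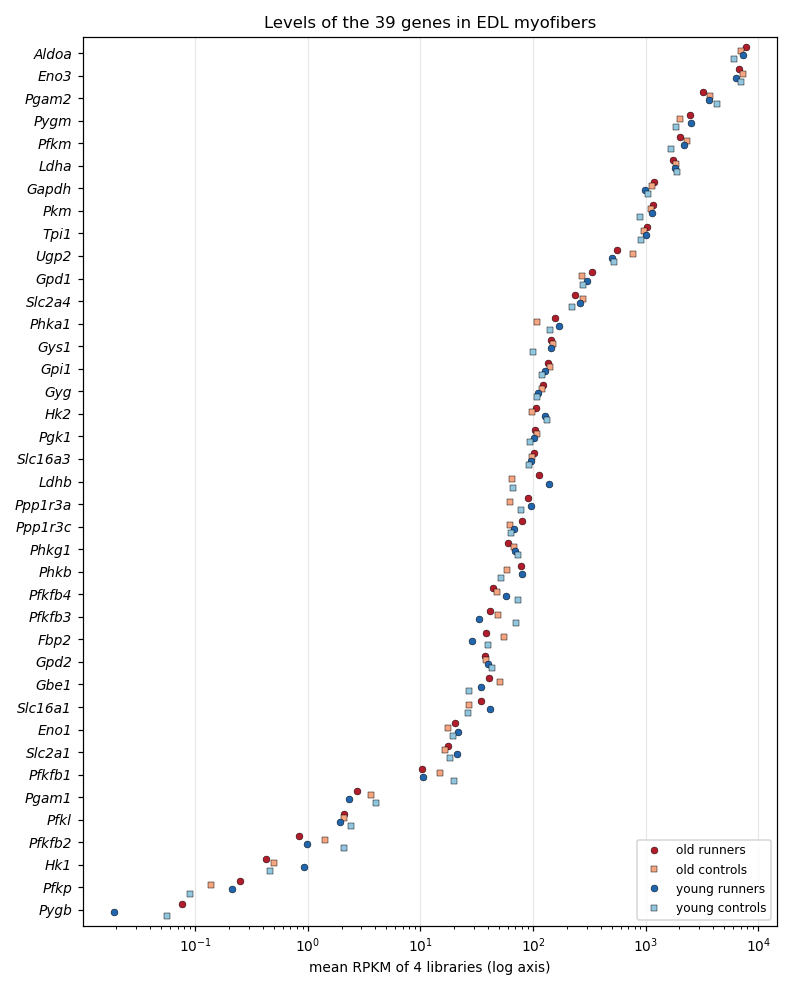
Mean RPKM of the 39 genes (rows, ordered by their mean over 16 libraries) in old runners, old controls, young runners and young controls, on a log axis. Aldoa at 7030 RPKM and Pygb at 0.0379 RPKM mark the ends of the range, and the 4 group means of a gene lie close to each other at this scale; group means of 0 cannot be drawn, which leaves out Pygb in old controls.

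Several steps of the pathway were carried mostly by 1 isoform. Per kilobase, Pfkm made up 99.75% to 99.95% of the reads of the 3 phosphofructokinase genes in every library, Eno3 99.6% to 99.78% of those of Eno1 and Eno3, and Hk2 98.98% to 99.99% of those of Hk1 and Hk2. Slc2a4, which encodes the insulin-responsive carrier GLUT4, took 88.21% to 95.97% of the reads of Slc2a4 and Slc2a1 together, and Slc2a1, which encodes the carrier GLUT1, the rest. Other glucose carriers were not part of this share. The reads of the lactate carriers Slc16a3 and Slc16a1 were more evenly split: Slc16a3, which encodes MCT4, the exporter of glycolytic fibres, held 61.85% to 84.1% and Slc16a1, which encodes MCT1, the rest. The variation between libraries also differed by gene. Among genes with more than 100 normalised reads in every library, Slc2a4 varied least, with its highest library 1.56 times its lowest, and Ldhb varied most, at 5.8 times.

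With running averaged over both ages, a few of the genes differed between runners and controls by more than the spread between libraries. Of 38 genes tested in the model of 16 libraries, 3 rose (Ldhb, Phkb and Pygm) and 2 fell (Pfkfb1 and Pfkfb2) at an adjusted p under 0.05. That is 13.2% of the genes tested, against 9.0% of all 10851 genes tested. The 3 that rose are 7.89% of the genes, against 4.47% of all genes, and the 2 that fell are 5.26%, against 4.53% of all genes, so the shares lie near those of the transcriptome. The median log2 difference was 0.13 over these genes and 0.03 over all genes tested, with 27 differences positive and 11 negative. At an unadjusted p under 0.05 stood 14 of the 38, 10 higher and 4 lower, which is 36.8% against 27.4% of all genes.

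At each age alone the 8 libraries gave fewer calls. In old runners against old controls, limma called 0 of 38 genes, where 0.128% of all genes were called. Voom on the recovered reads, which was fitted over all 16 libraries for every comparison, also called 0. A fit with library weights called 5, where it called 7.34% of all genes. By limma 8 genes (7 higher and 1 lower, 21.1%) had an unadjusted p under 0.05, against 17.4% of all genes. Leaving out Oc1 gave 3 calls (Phka1, Phkb and Ppp1r3a), with 3.19% of all genes called. Only Slc16a1 had groups that did not overlap, which is 2.63% of the genes against 10.2% of all genes. In young runners against young controls, 1 of 38 genes passed, Ldhb, against 0.762% of all genes in either direction and 0.282% of all genes called higher. The count was 2 under voom, 10 with library weights and 2 without Yc4, where 2.34%, 13.1% and 1.73% of all genes were called. There 9 genes (7 higher, 2 lower; 23.7%) had an unadjusted p under 0.05, against 17.4% of all genes. Groups did not overlap for 7 genes: Slc2a4, Pfkm, Pkm, Ldhb, Gys1 and Phkb with every young runner above every young control, and Pfkfb1 with every young runner below. That is 18.4%, against 11.5% of all genes. The median difference was 0.11 in old mice and 0.20 in young mice, against 0.04 and 0.01 over all genes.

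**Figure D2:**
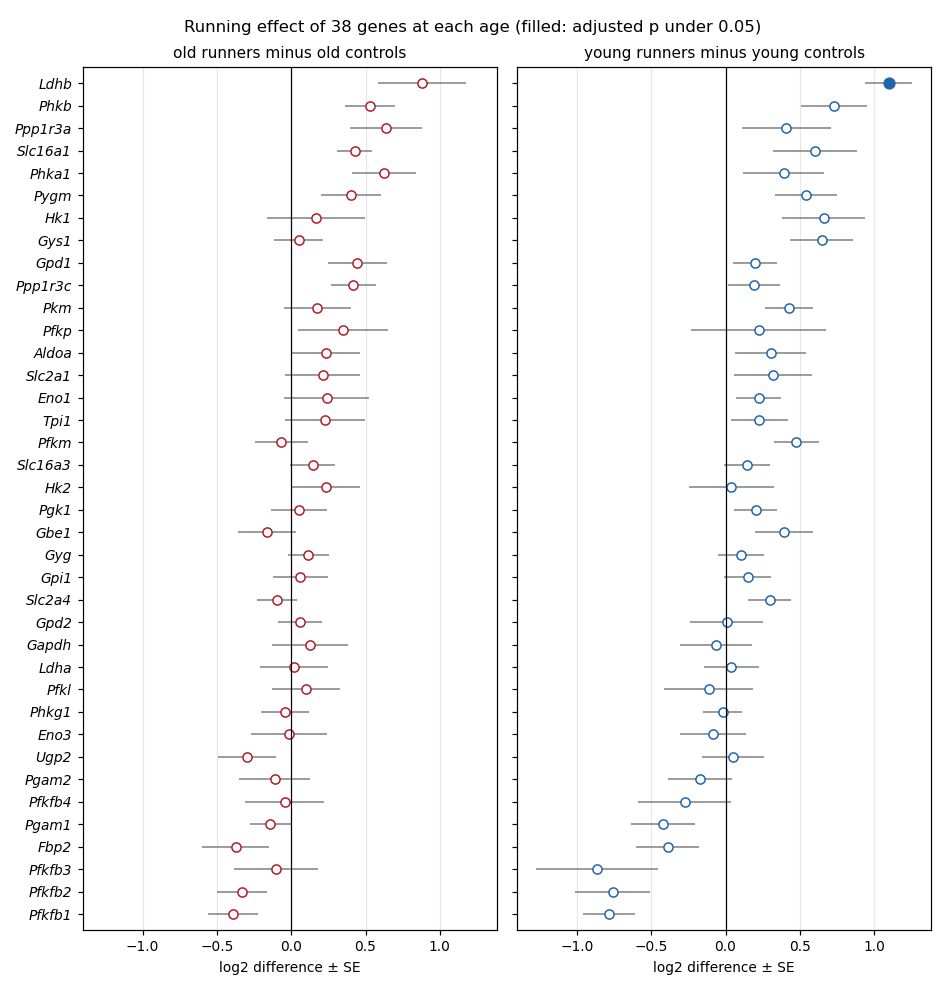
Log2 difference with its SE of 38 genes, on the left in old runners minus old controls and on the right in young runners minus young controls, with genes ordered by the running effect averaged over both ages. Ldhb is at the top of both panels (0.88 in old mice, 1.10 in young mice, the 1 filled point) and the Pfkfb genes and Fbp2 are near the bottom.

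Among the transporters, all 4 averaged differences were positive, from 0.10 to 0.51, and none passed. Slc16a1, which carries lactate across the fibre membrane, had 7323, 7287, 7429 and 6662 normalised reads in old runners (O1ex to O4ex), against 5104, 5077, 4740 and 6209 in old controls (Oc1 to Oc4). Every old runner thus lay above every old control. In young mice it had 10378, 11375, 4153 and 7886 normalised reads in young runners (Y1ex to Y4ex), against 5568, 6485, 4403 and 4354 in young controls (Yc4, Yc5, Yc7 and Yc8). There 3 of the 4 young runners exceeded all controls and Y3ex fell below them, so these groups overlapped. Its difference was 0.43 ± 0.12 (SE) in old mice (adjusted p = 0.136), 0.60 ± 0.28 in young mice (adjusted p = 0.306) and 0.51 ± 0.16 averaged (adjusted p = 0.0556). Slc2a4 had 45935, 35671, 35477 and 39932 normalised reads in old runners, against 40058, 42042, 38697 and 47561 in old controls, which overlap widely. It had 38650, 45773, 38589 and 45144 in young runners, against 30397, 32291, 36643 and 37105 in young controls, which do not overlap. The differences were -0.10 ± 0.13 in old mice (adjusted p = 0.756) and 0.30 ± 0.14 in young mice (adjusted p = 0.313).

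The hexose phosphate steps held no call. Hk2, the insulin-regulated hexokinase of muscle, had an averaged difference of 0.14 ± 0.20, Gpi1, glucose phosphate isomerase, of 0.11 ± 0.12, and Pfkm of 0.21 ± 0.11. Pfkm was uneven between the ages. It had 370528, 313194, 271990 and 336432 normalised reads in old runners, against 342550, 376881, 375045 and 268869 in old controls, and both groups cover the same range. In young mice it had 342840, 361269, 340952 and 325274 in young runners, against 240554, 259743, 227167 and 254589 in young controls, with a wide gap between the groups. Its difference was -0.07 ± 0.18 in old mice (adjusted p = 0.88) and 0.48 ± 0.15 in young mice (adjusted p = 0.158).

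Both genes that fell belong to the family that sets the level of the main activator of phosphofructokinase. The 4 Pfkfb genes encode bifunctional enzymes that make and remove this fructose bisphosphate, and Fbp2 encodes the muscle fructose bisphosphatase, which works against phosphofructokinase. All 5 had negative differences at both ages, except that in old mice Pfkfb3 turned positive with library weights and without Oc1 or O1ex, and Pfkfb4 without Oc4, O1ex or O4ex. The averaged differences ran from -0.59 to -0.16, and 2 of the 5 passed in the averaged comparison. Pfkfb1, which encodes the liver and muscle forms, had 1818, 2432, 2182 and 1293 normalised reads in old runners, against 2726, 2363, 2483 and 2908 in old controls. It had 2192, 1734, 1647 and 2337 in young runners, against 3717, 2885, 4268 and 3317 in young controls. Every young runner lay below every young control, and in old mice 1 runner, O2ex, lay above the lowest control. Averaged over both ages Pfkfb1 fell by 0.59 (SE 0.12, adjusted p = 0.00886), with -0.39 ± 0.17 in old mice (adjusted p = 0.258) and -0.79 ± 0.17 in young mice (adjusted p = 0.0668).

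Pfkfb2, the heart form, was far lower per length (1.35 RPKM, against 14.0 RPKM for Pfkfb1). It had 333, 246, 263 and 317 normalised reads in old runners, against 571, 272, 432 and 542 in old controls. It had 475, 254, 199 and 391 in young runners, against 451, 716, 961 and 567 in young controls. At both ages the groups overlapped through 1 low control (Oc2 and Yc4). Fitted differences of a gene this low are compressed in the deposited values. Averaged, Pfkfb2 fell by 0.55 (SE 0.15, adjusted p = 0.0355), a call that was lost without filtering and when any of O1ex, O2ex, O3ex, O4ex, Oc1, Oc3, Oc4, Y2ex or Yc7 was left out (adjusted p 0.00321 to 0.0772 over all alternatives). The libraries kept no strand. Exons of Pfkfb2 (chr1:130689182-130729253, minus strand) overlap those of Gm29427 and Yod1, and exons of Pfkfb1 (chrX:150588229-150643878, plus strand) those of Apex2. Reads in the shared stretches cannot be assigned to 1 gene, so these counts depend on how overlapping genes were treated. The same holds for other genes described, among them Pfkm (with Senp1 and Gm26513), Gys1 (Ruvbl2), Aldoa (Fam57b), Tpi1 (Spsb2) and Gapdh (Iffo1). Pfkfb3, an inducible form with high kinase activity, had differences of -0.10 ± 0.28 in old and -0.87 ± 0.41 in young mice (adjusted p = 0.309). Without Yc4 the young difference was -1.32 and passed (adjusted p = 0.0329), as did the averaged one, at -0.71 (adjusted p = 0.0433), and library weights also called it in young mice (-1.17, adjusted p = 0.0171; 0.0171 to 0.536 over all alternatives). Pfkfb4 had -0.04 ± 0.26 in old and -0.28 ± 0.31 in young mice. Fbp2 had -0.37 ± 0.23 in old and -0.39 ± 0.21 in young mice (averaged -0.38 ± 0.16, adjusted p = 0.144).

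From aldolase to pyruvate kinase none of 9 genes passed, and the averaged differences ran from -0.28 (Pgam1) to 0.30 (Pkm, pyruvate kinase). Aldoa (0.27 ± 0.16), Tpi1 (triose phosphate isomerase, 0.23 ± 0.17), Gapdh (0.03 ± 0.18), Pgk1 (phosphoglycerate kinase, 0.13 ± 0.12), Pgam2 (-0.14 ± 0.17) and Eno3 (-0.05 ± 0.17) all lay within 2 SE of 0. Of Gapdh, O1ex had 365223 normalised reads and Y3ex had 289587, where the other 14 libraries had 127596 to 264364. These were also the 2 highest libraries of Aldoa and Tpi1. Pkm had 241346, 273323, 298146 and 241329 normalised reads in young runners, against 193011, 219573, 177745 and 190652 in young controls, without overlap (0.43 ± 0.16, adjusted p = 0.213). In old mice it had 383913, 247582, 214918 and 271515 in runners, against 246025, 302324, 261443 and 179073 in controls, which overlap (0.18 ± 0.22, adjusted p = 0.729). Of the 50-base stretches of their exons, 53.9% were found in transcripts of other genes for Pgk1, 36.2% for Pgam1, 26.0% for Eno1 and 24.7% for Gapdh, so the counts of these genes depend on how copies were treated. For Pkm it was 25.8%, shared most with Gm49759, whose exons overlap those of Pkm on the same strand. Its count depends on how overlapping genes were treated.

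Ldhb, the B subunit of lactate dehydrogenase, had the largest averaged difference of the 38 genes. It had 13792, 7395, 6293 and 6699 normalised reads in old runners, against 4415, 4780, 2376 and 6321 in old controls. It had 9730, 13007, 8251 and 9586 in young runners, against 4666, 4324, 4289 and 4985 in young controls. Every young runner lay above every young control by a wide gap, whereas in old mice the lowest runner, O3ex, lay just under the highest control, Oc4, and O1ex stood far above the other runners. Averaged over both ages Ldhb rose by 0.99 (SE 0.18, adjusted p = 0.00425), and it passed in 23 of 23 alternatives (adjusted p 0.000572 to 0.0121). It rose by 1.10 (SE 0.16) in young mice (adjusted p = 0.0205). That call was lost when Y1ex, Y2ex, Y4ex, Yc5, Yc7 or Yc8 was left out (adjusted p 0.000779 to 0.107 over all alternatives), with the difference between 0.97 and 1.18 in every case. In old mice the difference was 0.88 ± 0.29 (adjusted p = 0.176), and 0.64 without O1ex. Ldhb lies on chromosome 6 (chr6:142490249-142507957, mm10, minus strand), overlaps no other exon, and 21.0% of its 50-base stretches are shared with other transcripts, most of them with Gm5514. The count of Ldhb therefore also depends on how copies were treated.

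Ldha, the A subunit, had 279028 ± 77856 normalised reads in old runners and 272982 ± 49894 in old controls, and 285135 ± 51416 in young runners and 274554 ± 31229 in young controls (SD, n = 4 each). Its averaged difference was 0.03 ± 0.15 (adjusted p = 0.918). The share of Ldhb in the reads of both subunits, per kilobase, was 7.04%, 5.76%, 6.29% and 4.81% in old runners, against 3.25%, 2.99%, 1.74% and 6.08% in old controls. It was 6.97%, 8.72%, 4.71% and 8.16% in young runners, against 3.06%, 3.7%, 3.09% and 3.81% in young controls. The young groups did not overlap and the old groups did, through Oc4. The share was higher in runners by 3.73 percentage points in young mice (2-sided exact permutation p = 0.0286, the smallest that 70 assignments allow) and by 2.46 points in old mice (exact p = 0.0857). Adjusted over the 32 share comparisons computed, neither passed (0.457 and 0.596), and none of the 32 did. With 32 comparisons and a smallest possible p of 0.0286, a share could pass only if many reached that p. The absence of a pass therefore says little.

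**Figure D3:**
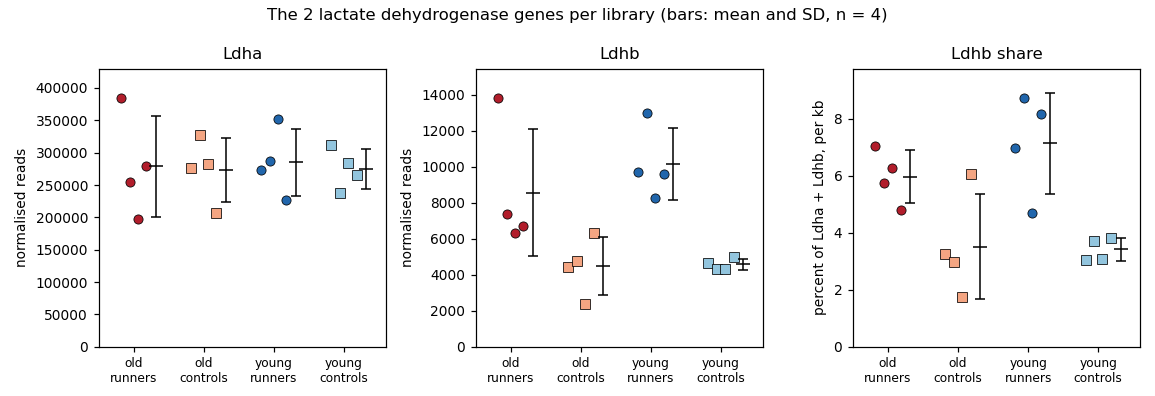
Normalised reads of Ldha and Ldhb and the share of Ldhb in the reads of both per kilobase, by library, with mean and SD beside the points of old runners, old controls, young runners and young controls (n = 4 each). Ldha is level over the 4 groups, while the Ldhb share averages 5.98% in old runners against 3.51% in old controls and 7.14% in young runners against 3.42% in young controls.

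The 2 glycerol phosphate dehydrogenases move reducing equivalents from the cytosol to the mitochondrion. The cytosolic Gpd1 had an averaged difference of 0.32 ± 0.13 (adjusted p = 0.114), with 0.45 ± 0.20 in old and 0.20 ± 0.15 in young mice. The mitochondrial Gpd2 had 0.03 ± 0.15 (adjusted p = 0.911).

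Glycogen breakdown held the other 2 genes that rose. Phkb encodes the regulatory beta subunit of phosphorylase kinase. It had 24170, 27766, 26075 and 30563 normalised reads in old runners, against 26302, 15856, 17967 and 16428 in old controls. It had 23134, 29875, 23871 and 33312 in young runners, against 10525, 20513, 17919 and 18208 in young controls. Every young runner exceeded every young control, and in old mice only Oc1 among the controls reached the range of the runners. Averaged over both ages Phkb rose by 0.63 (SE 0.14, adjusted p = 0.0146), in 23 of 23 alternatives (adjusted p 0.000303 to 0.0404). The difference was 0.53 ± 0.17 in old mice (adjusted p = 0.164) and 0.73 ± 0.22 in young mice (adjusted p = 0.14). Phkb lies on chromosome 8 (chr8:85840959-86061376, plus strand) with no overlapping exon and no shared 50-base stretch.

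The other kinase subunits did not pass. Phka1, the alpha subunit of muscle, had an averaged difference of 0.51 ± 0.19 (adjusted p = 0.0917), and Phkg1, the catalytic gamma subunit, of -0.03 ± 0.10 (adjusted p = 0.88). Pygm had 449750, 354354, 300546 and 405717 normalised reads in old runners, against 338458, 315131, 282892 and 214537 in old controls. It had 294573, 422933, 446437 and 358861 in young runners, against 193873, 303959, 274616 and 270421 in young controls. Pygm lies on chromosome 19 (chr19:6384399-6398459, plus strand). Both pairs of groups overlapped, with 1 runner of each age (O3ex and Y1ex) inside the range of its controls and O1ex, Y2ex and Y3ex highest. Averaged, Pygm rose by 0.47 (SE 0.14, adjusted p = 0.0474), close to the threshold, and it passed in 7 of 23 alternatives (adjusted p 0.0137 to 0.0978). The call was lost without the filter, under median centring, quantile normalisation (where the difference was 0.30) and removal of the trend on exon length, and when any of O1ex, O2ex, O4ex, Oc2, Oc3, Oc4, Y2ex, Y3ex, Y4ex, Yc4, Yc7 or Yc8 was left out. The averaged count of 5 calls went down to 3 without O1ex, O2ex, O4ex, Oc3, Oc4, Y2ex or Yc7, with Ldhb, Phkb and Pfkfb1 called each time.

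**Figure D4:**
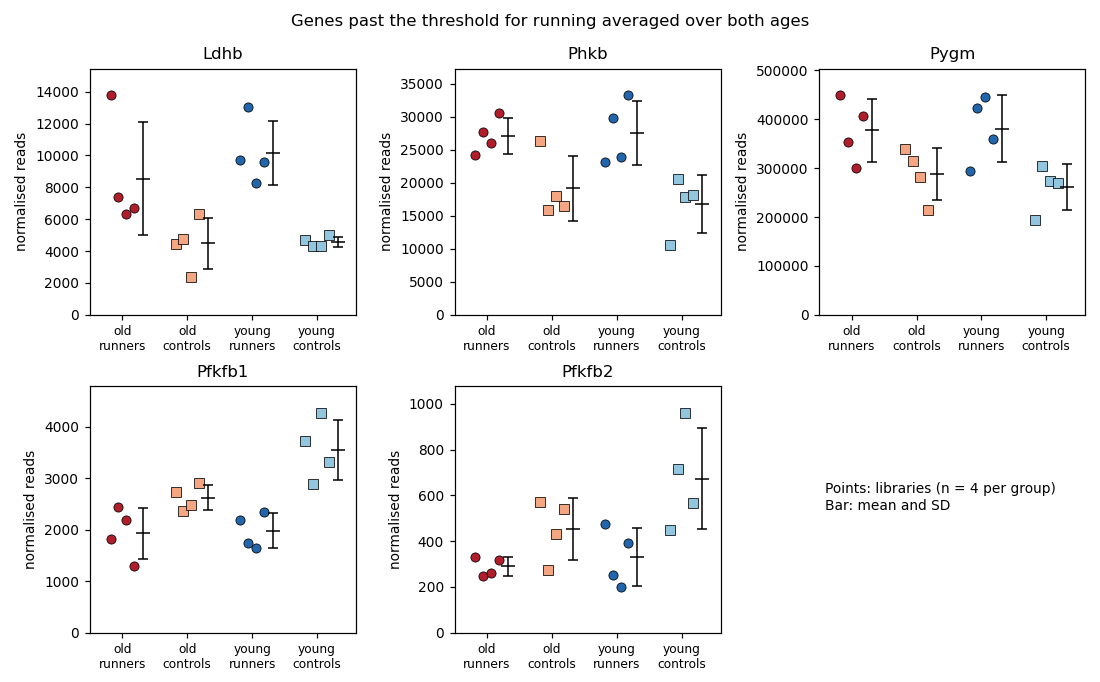
Normalised reads of the 5 genes past the threshold in the running effect averaged over both ages, by library, with mean and SD beside the points of old runners, old controls, young runners and young controls (n = 4 each). Ldhb, Phkb and Pygm are higher in the runners of both ages and Pfkfb1 and Pfkfb2 lower; O1ex stands at 13792 in Ldhb.

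The windows around the annotated start of the 3 genes that rose are printed here, since each has 1 window in the RefSeq table and they moved in the same direction. Pfkfb1 and Pfkfb2 have 4 and 3 windows, and reads counted over a whole gene do not say which start is used. Each window runs from 250 bases before to 50 bases after the start, in RefSeq coordinates of GRCm38.p6, 5′ to 3′ on the strand of the gene. Capitals mark matches, on either strand, to the core of the hypoxia-inducible factor site (ACGTG or GCGTG) or the Sp1 core GGGCGG.
Ldhb, chr6:142507908-142508207, minus strand: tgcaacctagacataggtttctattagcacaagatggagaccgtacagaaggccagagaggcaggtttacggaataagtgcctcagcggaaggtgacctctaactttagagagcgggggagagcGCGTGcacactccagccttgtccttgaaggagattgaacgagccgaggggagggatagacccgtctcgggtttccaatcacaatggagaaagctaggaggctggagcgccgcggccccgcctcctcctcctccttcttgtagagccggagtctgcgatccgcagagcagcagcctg
Phkb, chr8:85840738-85841037, plus strand: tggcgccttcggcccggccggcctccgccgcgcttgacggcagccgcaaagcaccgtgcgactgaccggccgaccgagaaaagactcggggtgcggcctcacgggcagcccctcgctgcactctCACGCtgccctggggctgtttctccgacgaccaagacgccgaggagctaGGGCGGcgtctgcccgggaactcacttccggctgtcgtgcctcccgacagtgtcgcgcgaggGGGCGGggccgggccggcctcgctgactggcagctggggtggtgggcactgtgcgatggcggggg
Pygm, chr19:6384158-6384457, plus strand: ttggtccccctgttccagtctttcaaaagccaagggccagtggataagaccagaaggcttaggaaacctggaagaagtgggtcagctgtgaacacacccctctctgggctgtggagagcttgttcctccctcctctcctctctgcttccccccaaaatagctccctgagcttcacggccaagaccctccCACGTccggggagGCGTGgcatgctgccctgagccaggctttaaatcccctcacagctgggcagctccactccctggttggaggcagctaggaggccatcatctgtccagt
The Ldhb window holds 1 match to the hypoxia core, at -126 from the start, and the Phkb window 1, also at -126, plus Sp1 cores at -77 and -15. The Pygm window holds hypoxia cores at -61 and -48. A hypoxia core is found in 43.8% of all 32851 windows and an Sp1 core in 35.7%, so such matches are common. An E-box CACGTG (7.2% of windows), a MEF2 motif (3.2%), TNAAGGTCA, the motif of estrogen-related receptors (1.3%), and the cyclic AMP response element TGACGTCA (1.8%) were also searched and have no match in these 3 windows. The 3 windows hold 57.3%, 73.3% and 58.7% G and C for Ldhb, Phkb and Pygm, with a median of 52.7% over all windows.

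Glycogen synthesis showed no averaged call. Gys1, the muscle glycogen synthase, had 0.35 ± 0.14 (adjusted p = 0.119), the branching enzyme gene Gbe1 0.11 ± 0.14, glycogenin (Gyg), the primer of the particle, 0.11 ± 0.10, and Ugp2, which makes UDP-glucose, -0.12 ± 0.14. Gys1 had 43343, 28149, 27516 and 32075 normalised reads in old runners, against 31417, 30025, 27791 and 36470 in old controls, which overlap. It had 33932, 39237, 26695 and 30158 in young runners, against 13609, 26282, 20995 and 23197 in young controls, which do not. The difference was 0.05 ± 0.17 in old mice (adjusted p = 0.903) and 0.65 ± 0.21 in young mice (adjusted p = 0.174). Ppp1r3a and Ppp1r3c, which tether protein phosphatase 1 to glycogen, had averaged differences of 0.52 ± 0.21 (adjusted p = 0.119) and 0.31 ± 0.12 (adjusted p = 0.102).

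The effect of running was then compared between ages. limma called 0 of 38 genes for the difference of the 2 effects, as 0.0% of all genes, voom and library weights also called 0, and 3 genes had an unadjusted p under 0.05 (7.89%, against 6.64% of all genes). These were Pfkm, whose effect in old mice was lower than that in young mice by 0.54 (-0.54 ± 0.21, adjusted p = 0.66), Slc2a4 (-0.39 ± 0.18, adjusted p = 0.744) and Gys1 (-0.60 ± 0.28, adjusted p = 0.745). For Ldhb the difference of the effects was -0.22 ± 0.36 and for Phkb -0.20 ± 0.29, with intervals wide enough to hold both none and a sizeable difference.

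Age was compared in the controls. In old controls against young controls, limma called 0 of 37 genes tested (Pfkp and Pygb were too low), where 0.112% of all genes were called. Voom called 0 and library weights called 2 (Gbe1 and Ugp2), where they called 4.69% of all genes, and 6 genes (5 higher, 1 lower; 16.2%) had an unadjusted p under 0.05, against 11.2% of all genes. Groups did not overlap for 4 genes, all higher in old controls: Slc2a4, Pfkm, Gys1 and Gbe1. That is 10.8%, against 7.0% of all genes. The median difference was 0.03, against -0.01 over all genes.

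All 4 genes of glycogen synthesis had positive differences in old controls. Gbe1 had 10027, 13409, 8300 and 15792 normalised reads in old controls, against 6736, 7533, 4751 and 6489 in young controls. The lowest old control, Oc3, lay just above the highest young control, Yc5, while Oc2 and Oc4 were far higher, and the lowest old control was closer still to the highest young one in Slc2a4, Pfkm and Gys1. Its difference was 0.86 ± 0.21 (adjusted p = 0.204), Gys1 had 0.63 ± 0.20 (adjusted p = 0.275), Ugp2 0.56 ± 0.25 (adjusted p = 0.433) and Gyg 0.17 ± 0.12 (adjusted p = 0.653). Pfkm, with the values given above, had 0.49 ± 0.17 (adjusted p = 0.299) and Slc2a4 0.33 ± 0.14 (adjusted p = 0.407). Pfkfb1 was the 1 gene at an unadjusted p under 0.05 in the other direction (-0.37 ± 0.15, adjusted p = 0.409). These values use the same young controls as the running effect in young mice, so neither set of differences is independent of the other.

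**Figure D5:**
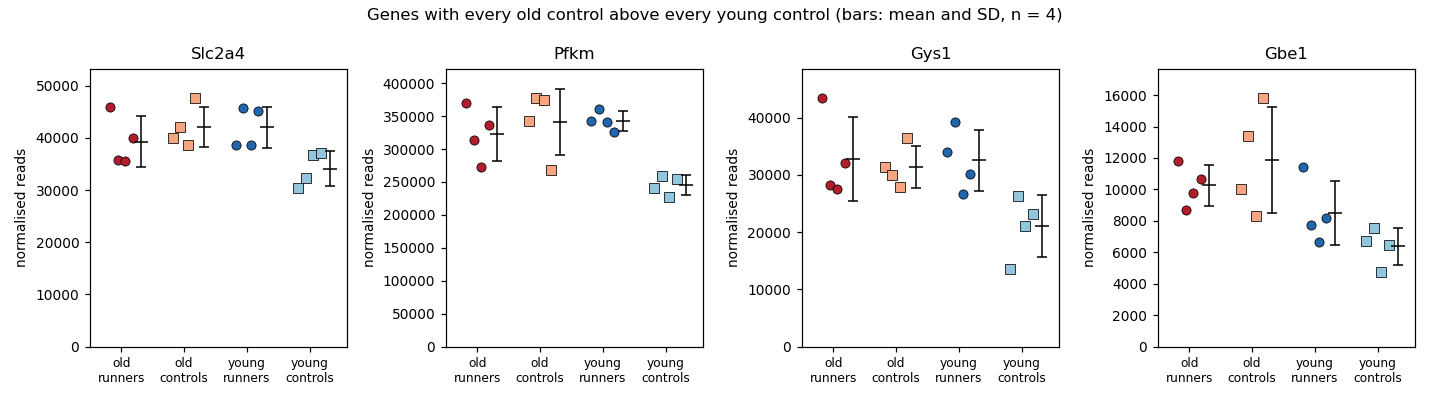
Normalised reads of Slc2a4, Pfkm, Gys1 and Gbe1 by library, with mean and SD beside the points of old runners, old controls, young runners and young controls (n = 4 each). In each panel every old control lies above every young control; the margin is narrow in all 4, as in Slc2a4, with 38697 in the lowest old control and 37105 in the highest young control.

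In old runners against young runners, limma called 0 of 38 genes, where 0.0213% of all genes were called. Voom and library weights also called 0, 1 gene had an unadjusted p under 0.05 (2.63%, against 4.91% of all genes), and no gene had groups that did not overlap, against 3.38% of all genes. That gene was Hk1, the hexokinase of most tissues, with 147, 225, 136 and 184 normalised reads in old runners, against 573, 380, 197 and 325 in young runners. Old runners were mostly lower, with O2ex above Y3ex (-0.49 ± 0.18, adjusted p = 0.982). Fbp2 had 1966, 2511, 3549 and 2495 normalised reads in old runners, against 2574, 1330, 2071 and 1868 in young runners, with Y1ex and Y3ex inside the range of the old (0.37 ± 0.19, adjusted p = 0.988). Gbe1 had 11823, 8720, 9794 and 10683 in old runners, against 11434, 7769, 6668 and 8185 in young runners, also overlapping (0.28 ± 0.17, adjusted p = 0.988).

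Genes that act around the pathway were read from lists of their own. Of 27 genes of insulin and contraction signalling to glucose uptake, 4 rose and 1 fell with running averaged over both ages, which is 18.5% called, against 9.0% of all genes. Txnip, an arrestin-like protein that restrains glucose uptake, had 12060 ± 2403 normalised reads in old runners and 22210 ± 2685 in old controls, and 10327 ± 2241 in young runners and 16769 ± 2162 in young controls (SD, n = 4 each). It fell by 0.79 (SE 0.12, adjusted p = 0.00173), and at both ages the highest runner lay below the lowest control. Camk2b, a subunit of the calcium-activated kinase CaMKII, rose by 0.88 (SE 0.18, adjusted p = 0.00802), Prkaa1, a catalytic subunit of AMP-activated kinase, by 0.91 (SE 0.19, adjusted p = 0.0112), and the small GTPases Rac1 and Rab10, which act on the movement of GLUT4 to the membrane, by 0.46 (SE 0.09, adjusted p = 0.00643) and 0.42 (SE 0.10, adjusted p = 0.0203). Rab10 lost its call without Y2ex. Of 22 transcription factors tested 2 fell, which is 9.09%, near the 9.0% of all genes. Mlxipl, the glucose-sensing factor ChREBP, fell by 0.56 (SE 0.13, adjusted p = 0.0194) and the nuclear receptor Nr4a1 by 0.41 (SE 0.11, adjusted p = 0.033). Nr4a1 lost its call without O1ex, O2ex, Oc2, Oc3, Y2ex or Yc7 and without the filter.

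No gene passed in the lists of other glycolysis and glucose transport genes (10 tested, 4 at an unadjusted p under 0.05), other glycogen genes (19 tested, 3), NADH shuttles and pyruvate carriers (11 tested, 3) and the pentose phosphate and hexosamine branches (14 tested, 2) in the averaged comparison by limma. Voom also called none there, and library weights called 1, 3, 2 and 2, where they called 24.6% of all genes. An unadjusted p under 0.05 was reached by 27.4% of all genes in the averaged comparison. Of 12 fast fibre genes 2 rose in the same comparison and of 6 slow and oxidative fibre genes tested 1. That is 16.7% of the genes tested in each list, against 9.0% of all genes. Of the 12 fast genes 8 averaged differences were positive and 4 negative, with 9 and 3 in old mice and 6 and 6 in young mice. Of the 6 slow and oxidative genes 5 were positive and 1 negative, and Myh7, Myl3, Tnnt1, Tnni1 and Tnnc1 of that list were not tested. The fast myosin Myh1 rose by 1.43 (SE 0.27, adjusted p = 0.0054), in 23 of 23 alternatives. The fast myosin Myh4 rose by 0.80 (SE 0.24, adjusted p = 0.0457), a call held in 7 of 23 alternatives (adjusted p 0.00312 to 0.0934) and lost without the filter, under quantile normalisation and removal of the length trend, and when any of O1ex, O2ex, O3ex, O4ex, Oc2, Oc3, Oc4, Y2ex, Y3ex, Y4ex, Yc4, Yc7 or Yc8 was left out. Myh2, the myosin of fast oxidative fibres, rose by 2.62 (SE 0.69, adjusted p = 0.0291), a call lost under voom (adjusted p = 0.057) and without O1ex, O4ex, Oc2, Oc3, Y2ex or Y4ex. Whether the fibre types of the samples had a part in the values of Ldhb, Phkb or Pygm was not tested.

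Markers of other cells moved with running beside these results. Of 11 fibro-adipogenic progenitor markers, genes of the stromal cells of muscle, 7 were tested and 5 (Dcn, Gsn, Col1a1, Col1a2 and Col3a1) rose in the averaged comparison, which is 71.4%, against 9.0% of all genes. The filter asks for 4 libraries above the floor, which runners alone can supply. Between controls only 2 of the 11, Dcn and Gsn, were tested, so the 71.4% is not independent of the filter. Under voom, which called 7.54% of all genes, Dcn and Gsn passed, and the 3 collagens did not (adjusted p 0.0686 to 0.0921). Summed over the 11 markers, the normalised reads ran from 2016 to 4084 (median 3756) in old runners and from 237 to 2189 (median 952) in old controls, and from 4027 to 12386 (median 5780) in young runners and from 60.6 to 720 (median 470) in young controls. Pdgfra, which defines these cells, was at 0 in all 8 old libraries. Of 13 endothelial markers 11 were tested, and 0 passed by limma or voom. Library weights called 2, where they called 24.6% of all genes. All 11 averaged differences were positive (median 0.57), where 53.7% of all genes had a positive difference. At an unadjusted p under 0.05 by limma stood 6 of the 11, where 27.4% of all genes did. At each age alone 7 of 9 tested were positive in old mice and 10 of 10 in young mice. The sums were 1575 to 5843 in old runners and 845 to 6809 in old controls, and 1752 to 7680 in young runners and 409 to 1402 in young controls. Of 8 satellite cell markers 5 were tested and 1, Cd82, rose (0.47, SE 0.13, adjusted p = 0.0374), as it did under voom, but not without the filter or without O1ex, O2ex, O3ex, Oc2, Oc3, Y2ex, Y4ex, Yc7 or Yc8. All 5 had an unadjusted p under 0.05, 4 higher and 1 lower. Sums over these markers, of which Pax7 was at or near 0 and Sdc4 and Itga7 carried most reads, were 11526 to 13728 in old runners and 6419 to 12233 in old controls, and 14745 to 17757 in young runners and 9831 to 13572 in young controls. Of 4 pericyte and smooth muscle markers tested Rgs5 rose, and of 2 tendon markers Fmod, both without a call under voom, and Fmod with a call in 8 of 23 alternatives. All 3 red blood cell genes tested were higher at an unadjusted p under 0.05, which 27.4% of all genes had, and none passed. The same filter bears on these lists. Between controls the endothelial markers Cdh5, Kdr, Egfl7, Esam and Emcn were not tested. Neither were Vcam1 (satellite cells), Cspg4 and Kcnj8 (pericytes), Fmod (tendon) and Hba-a2 (red blood cells). The counts of these lists are therefore not independent of the filter either. Of 12 leukocyte markers 4 were tested in the averaged comparison and 0 passed by limma. Between controls 1 of 3 leukocyte markers tested passed, lower in old controls (33.3%, against 0.112% of all genes). The part of these cells in the differences of Ldhb, Phkb, Pygm, Pfkfb1 and Pfkfb2 was not tested.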

How the data were processed

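The submitters' processing notes name Trim Galore, STAR, featureCounts (Subread), DESeq2 and the build mm10; their versions and the annotation are not given in the sources used here. Per the labels' protocols, 10 ng of RNA was amplified with SMART-Seq v4, which keeps no strand, and made into libraries with the Nugen Ovation Ultralow kit. The deposited values are log2 values: the values fit the variance-stabilising transformation of DESeq2, which the authors made anew in each of 4 tables, 1 for each pair of groups, with genes without reads at a floor of 7.69, 6.73, 7.45 or 7.69. Differences between low genes are compressed on this scale.

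Undoing this transformation returned whole reads, to within 0.02, for 100% of values. A library found in 2 tables had equal reads in both. Reads were divided by a size factor per library, or by exon length for RPKM, from GENCODE M21 on mm10 (22204 of 23222 symbols, 39 of 39 genes described). Reads carry no molecular identifiers, so PCR copies are counted. The control columns follow another numbering than the sample titles and were matched to their group, as were O4ex and Y4ex.

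Each pair was fitted in its own table with limma 3.58.1 (R 4.3.3, Python 3.11.15; lmFit, eBayes with trend, 2-sided) over all genes that exceeded the floor by 1 or more in 4 or more libraries, with Benjamini-Hochberg adjustment over all genes and a threshold of 0.05. A model of both exercise tables gave the running effect averaged over ages and its difference between ages. Shares of isoforms were compared by exact permutation over 70 assignments. The fit was tested on simulated data. Genes given in every library are those past the threshold in any comparison and the 3 with the smallest p in each, with Pkm added after its values were seen. Alternatives were no filter, a filter of 2, median centring, quantile normalisation, library weights, voom on the recovered reads, a lowess trend on exon length (span 0.3) removed, each library left out, and a replicate block. Voom used 1 model of all 16 libraries, also for the comparison of a single pair of groups. The genes and lists were chosen with earlier results of these data known. Promoter windows came from RefSeq (GRCm38.p6), which held 37 of the 39 genes. Each table had 21 symbols turned into dates, which are not named.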

Additional observations from a re-analysis of the deposited data

Results flagged for a closer look

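Of 76 groups of 4 libraries examined with Dixon's test, 4 held a library far from the others; chance flags about 1 in 20 groups. Ldhb had 13790 normalised reads in old runner O1ex, where the other old runners had 6293 to 7395. The share of Hk2 in the reads of both hexokinases was 99.75% in old runner O3ex, against 99.51% to 99.52% in the other old runners. The same share was 98.99% in young control Yc4, against 99.71% to 99.83% in the other young controls. The share of Pgam2 in the reads of both mutases was 99.87% in old control Oc4, against 99.91% in each of the other old controls. Leaving out O1ex changed the averaged difference of Ldhb to 0.87, still past the threshold (adjusted p = 0.00789, with 0.000572 to 0.0121 over all alternatives).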

How the results depend on the processing

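No called gene changed sign under any alternative run. Among the 38 genes tested, at most 12 changed sign (old runners against young runners, without O1ex), and the largest size among those that did was 0.50 (difference between ages, under voom). Counts of all genes past the threshold moved by over 1.5 times as follows. Old runners against old controls had 12, and 7 without a filter, 27 with a filter of 2, 23 under median centring, 24 under quantile normalisation, 688 with library weights, 4 under voom and 2 with the length trend removed. Young runners against young controls had 81, and 24 without a filter, 143 under median centring, 228 under quantile normalisation, 1394 with library weights and 249 under voom. Old controls against young controls had 11, and 3 without a filter, 28 under quantile normalisation, 461 with library weights and 53 under voom. Old runners against young runners had 2, and 7 with library weights. The averaged effect had 977, and 2670 with library weights. The difference between ages had 0, and 11 with library weights and 1 with the length trend removed. With 1 library left out the counts ran from 1 to 295 in old runners (295 without Oc1), 0 to 181 in young runners (0 without Y2ex, 181 without Yc4), 3 to 52 between controls, 0 to 3 between runners, 420 to 1322 averaged and 0 to 5 for the difference between ages.

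Among the 38 genes tested (37 between controls), library weights gave 5 calls in old mice, 10 in young mice, 2 between controls and 14 averaged. The same setting called 7.34%, 13.1%, 4.69% and 24.6% of all genes. Quantile normalisation and voom each gave 2 in young mice, where they called 2.15% and 2.34% of all genes. No filter gave 3 averaged, where 4.05% of all genes were called. With 1 library left out the calls ran from 0 to 3 in old mice, 0 to 2 in young mice and 3 to 7 averaged, and stayed at 0 in the other 3 comparisons. Of all genes, 0.0108% to 3.19% were called in old mice, 0.0% to 1.73% in young mice and 3.9% to 12.3% averaged. No share of isoforms passed when taken over reads and not per kilobase. With 1 library left out only the differences of the shares were computed, without a p-value. The cause of these changes was not tested.

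Runners of the 2 ages share numbers in their titles, but same-numbered libraries did not deviate together (correlations -0.24, 0.092, -0.398 and -0.044 of deviations from the group means). With a replicate block, old runners against young runners gave 0 calls over all genes and 0 among the genes described. Pygb, at 0 in 11 libraries, was not tested, and Pfkp was not tested between controls.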
